A study of Mus musculus with 8 samples.

Results

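Of the 96324 CTCF peaks found on the 19 numbered autosomes of wild-type mouse embryonic stem cells, 18304 (19.0%) overlapped neither a CTCF peak of the tagged line C59 nor a peak of the cohesin subunit Smc3 in the wild type. Of the same peaks, 20.1% had no overlap with C59 CTCF and 55.6% none with WT Smc3, so the class is nearly all of the first set. These are the wild-type-only CTCF sites without Smc3 described here. They were chosen by position alone, with an overlap of at least 1 bp counting as shared, from a list of 98759 peaks over all chromosomes. That number, and the absence of C59 CTCF and wild-type Smc3, are fixed by the choice and are no result.

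Chromatin immunoprecipitation and sequencing (ChIP-seq) was done on JM8.N4 embryonic stem cells, grown without feeders and with LIF, and cross-linked for 5 min in 1% formaldehyde. The wild type (WT) was compared with C59, 1 clone of JM8.N4 homozygous for 2 knock-ins, FLAG-Halo on CTCF and SNAPf-V5 on the cohesin subunit Rad21. The tags, and the passage through 1 clone, therefore cannot be told apart. Each line had 1 library each of input, IgG, CTCF and Smc3, so that no difference between lines can be set against a spread between replicates and no test was made. Intervals are exact Clopper-Pearson intervals at 95% and cover counting error only.

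CTCF is a protein with a row of zinc fingers that reads a long, GC-rich DNA motif and marks insulators and the anchors of chromatin loops. Cohesin, the ring that holds Smc3, Smc1a and Rad21, slides along chromatin as it extrudes loops and stalls at bound CTCF. In embryonic stem cells strong CTCF sites therefore tend to carry cohesin, whereas weaker or short-lived CTCF binding is often seen without it. A site with no peak in a list lay below the authors' threshold there and may still be bound.

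DNA sequence was at hand for promoters only, taken from the RefSeq table of GRCm38.p6, the assembly whose chromosomes mm10 uses. Of the wild-type-only sites, 341 (1.86%) had their summit, the base of highest read pileup, in a window from 250 bases before to 50 bases after an annotated start site. The 4 sequences first shown are the 250 bases before the start site at sites that held the core of the CTCF motif there, taken as CCA, AG and GGC with 2 bases of any kind between each and the next, and searched on both strands. Capitals mark the match. They are the 4 of highest fold among windows whose start site is the outermost base of a named gene, and show how far such a match can lie from the summit.
Sowahb: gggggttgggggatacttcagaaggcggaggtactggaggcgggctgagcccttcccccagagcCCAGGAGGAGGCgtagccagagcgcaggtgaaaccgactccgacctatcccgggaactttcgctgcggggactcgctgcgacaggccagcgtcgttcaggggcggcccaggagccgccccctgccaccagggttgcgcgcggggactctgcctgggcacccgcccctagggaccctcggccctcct
Odf4: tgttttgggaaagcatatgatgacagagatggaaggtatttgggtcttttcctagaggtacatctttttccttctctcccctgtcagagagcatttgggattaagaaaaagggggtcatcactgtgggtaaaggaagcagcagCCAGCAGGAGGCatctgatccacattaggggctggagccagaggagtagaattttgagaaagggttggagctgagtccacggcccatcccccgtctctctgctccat
Tnfrsf13c: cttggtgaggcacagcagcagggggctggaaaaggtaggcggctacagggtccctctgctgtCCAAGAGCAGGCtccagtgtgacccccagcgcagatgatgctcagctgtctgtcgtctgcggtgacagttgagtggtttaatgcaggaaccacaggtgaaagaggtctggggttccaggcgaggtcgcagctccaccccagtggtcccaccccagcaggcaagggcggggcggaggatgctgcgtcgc
Slc44a2: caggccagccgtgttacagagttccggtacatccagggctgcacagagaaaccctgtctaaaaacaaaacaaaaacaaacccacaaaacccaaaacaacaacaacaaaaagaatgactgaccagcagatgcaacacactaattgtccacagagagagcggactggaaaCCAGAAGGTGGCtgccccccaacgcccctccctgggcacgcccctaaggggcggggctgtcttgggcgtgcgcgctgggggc

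The Sowahb window (chr5:93045023-93045272, minus strand) had the strongest of these 4 CTCF peaks, with a fold of 6.12 over local background, and the match lay 19.5 bp from the summit, counted from its centre. At Odf4 (chr11:68927082-68927331, minus strand), a gene of the sperm tail, the fold was 5.13 and the distance 11.5 bp. At Tnfrsf13c (chr15:82224381-82224630, minus strand), the receptor for the B cell survival factor BAFF, the fold was 3.06 and the distance 5.5 bp. At Slc44a2 (chr9:21320469-21320718, plus strand), a choline transporter-like gene, the fold was 2.51 and the summit lay 152.5 bp from the match. The first 3 therefore had the match close to the summit and the fourth did not.

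The next 3 are the strongest sites of this kind whose window held no match. Capitals mark the 21 bases centred on the summit.
Plcxd1: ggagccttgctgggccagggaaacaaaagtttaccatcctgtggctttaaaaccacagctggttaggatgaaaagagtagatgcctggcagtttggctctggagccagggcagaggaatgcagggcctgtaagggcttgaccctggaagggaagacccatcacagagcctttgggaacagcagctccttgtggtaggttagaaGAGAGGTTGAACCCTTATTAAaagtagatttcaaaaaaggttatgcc
Halr1: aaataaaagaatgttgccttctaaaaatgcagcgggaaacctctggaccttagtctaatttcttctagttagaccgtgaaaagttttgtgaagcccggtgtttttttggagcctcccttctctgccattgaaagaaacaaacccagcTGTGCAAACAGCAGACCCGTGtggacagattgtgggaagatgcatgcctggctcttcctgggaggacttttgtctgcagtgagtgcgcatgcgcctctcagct
Mogs: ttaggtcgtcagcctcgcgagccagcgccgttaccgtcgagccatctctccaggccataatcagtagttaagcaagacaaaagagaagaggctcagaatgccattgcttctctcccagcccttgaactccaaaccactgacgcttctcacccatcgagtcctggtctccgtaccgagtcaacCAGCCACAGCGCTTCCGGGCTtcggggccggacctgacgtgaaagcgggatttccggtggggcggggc

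Plcxd1 (chr5:110099719-110099968, plus strand) had a fold of 9.16 and no CpG in the 250 bases shown. Halr1 (chr6:52102699-52102948, plus strand), a long noncoding RNA gene beside the Hoxa cluster, had a fold of 6.91 and 6 CpGs. Mogs (chr6:83115256-83115505, plus strand), a glucosidase that trims N-glycans, had a fold of 6.59 and 19 CpGs. They were picked for their fold and show that strong sites of the class can lack the motif in this window, both in CpG-poor and in CpG-rich DNA.

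Over all wild-type-only sites in promoter windows, 23 of 341 (6.74%, interval 4.32 to 9.95) held the motif, against 2.47% of all 31396 autosomal windows of the same length and 1.62% of the 29135 windows with no WT CTCF summit. Among CTCF sites found in both lines without Smc3, called shared sites here, the share was 62 of 775 (8.00%, 6.19 to 10.1), and among shared sites with Smc3 it was 193 of 915 (21.1%, 18.5 to 23.9). Among wild-type-only sites with Smc3 it was 1 of 40 (2.5%, 0.0633 to 13.2). The wild-type-only sites without Smc3 thus lay above the promoters without CTCF and near the shared sites without Smc3. Of the shared sites with Smc3, 894 of 915 had a fold of 6 or more, and at 4 to 6 they held it in 1 of 17 (5.88%, 0.149 to 28.7), against 10 of 121 wild-type-only sites (8.26%, 4.03 to 14.7). With a looser core, in which the A of CCA may be any base and which every match of the stricter one also meets, the shares were 19.4% (15.3 to 24.0) of wild-type-only sites, 26.6% (23.5 to 29.8) of shared sites without Smc3, 45.0% of shared sites with Smc3 and 8.73% of all windows. Of wild-type-only sites with Smc3, 7 of 40 held the looser core (17.5%, 7.34 to 32.8). Below a fold of 4, 10 of 197 wild-type-only sites without Smc3 (5.08%, 2.46 to 9.14) and 7 of 85 shared sites without Smc3 (8.24%, 3.38 to 16.2) held the stricter motif, with intervals that overlap.

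**Figure D1:**
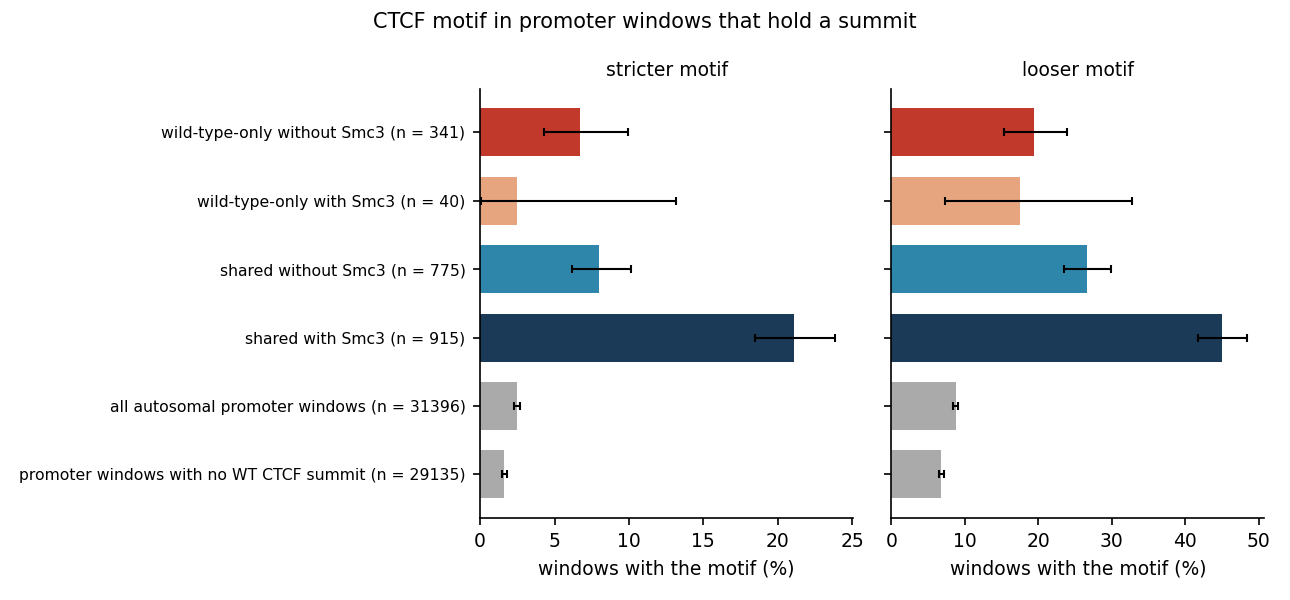
Share of promoter windows, in percent, with the stricter (left) and looser (right) CTCF motif, for windows that hold a CTCF summit of each group and for 2 sets of windows for reference; bars start at 0 and whiskers are 95% Clopper-Pearson intervals. Wild-type-only sites without Smc3 stand at 6.74% and 19.4%, between all windows (2.47% and 8.73%) and shared sites with Smc3 (21.1% and 45.0%).

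The match lay farther from the summit than at shared sites with Smc3. Of the 23 wild-type-only sites with the stricter motif, 14 had it within 50 bp of the summit, with a median distance of 44.5 bp. At shared sites without Smc3 it was 45 of 62, with a median of 29 bp, and at shared sites with Smc3 165 of 193, with 14.5 bp. With the looser motif the counts were 25 of 66 (median 61 bp), 133 of 206 (31 bp) and 343 of 412 (15.5 bp). These distances were not split by fold, and 894 of the 915 shared sites with Smc3 had a fold of 6 or more. The part of peak strength in them was not tested. Windows with a wild-type-only summit were GC-rich, with a median of 62% G and C and 20 CpGs, as were those of shared sites without Smc3 (62.7% and 22), whereas all windows had medians of 53% and 7. Shared sites with Smc3, with the highest motif share, had lower medians of 59% and 17. The part of base composition in the motif shares was not tested.

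As a class the wild-type-only sites were weak and narrow. Fold, the authors' enrichment of a peak over its local background, is used to rank peaks within the WT CTCF list only. It ran from 1.88 to 12.7 with a median of 4.11 and a middle range of 3.55 to 4.86. Shared sites had medians of 7.17 without Smc3 and 21.5 with it, and the 1082 wild-type-only sites that carried Smc3 had 5.03. Pileup at the summit had a median of 24 for wild-type-only sites without Smc3, 43 for shared sites without and 151 for shared sites with Smc3. The median width was 316 bp, against 473 bp and 813 bp, and 41.5% of these sites were no wider than 300 bp, where the narrowest peak of the list was 250 bp. They covered 6202.5 of the 60796.8 kb of all autosomal peaks.

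Most had a q well below the largest of the list (0.0495), but the class lay nearer to it than the other groups. The median −log10 q was 7.61, and 82.9% had a value of at least 5. Among shared sites without Smc3 the values were 23.4 and 98.1%. A q above 0.001 was found at 2.40% of the class, against 0.221% of shared sites without Smc3 and 0.559% of all autosomal WT CTCF peaks. The depth of the C59 CTCF library, from the floor of the background and the step between pileup values, was 0.869 times that of the WT, which bears on any site near the threshold, and its part in the absence of C59 peaks was not tested. When the WT list was held to as many of its strongest peaks as the C59 list had (82227), 6853 such sites were left, 8.55% of its autosomal peaks.

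The class gave way to shared sites as fold rose. Between folds of 3 and 3.5, 75% of all WT CTCF peaks were wild-type-only without Smc3, and between 3.5 and 4 it was 69.6%. The share was 53.4% from 4 to 5, 31.5% from 5 to 6, 11.0% from 6 to 8 and 0.277% at 8 or more. Below a fold of 3 the share no longer rose, at 73.2% from 2.5 to 3 and 74.8% below 2.5. Of the WT peaks without Smc3 in these 2 lowest bins, 75.8% (73.5 to 78.1) and 78.1% (72.7 to 82.9) were not found in C59, so that some of the weakest peaks recurred.

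**Figure D2:**
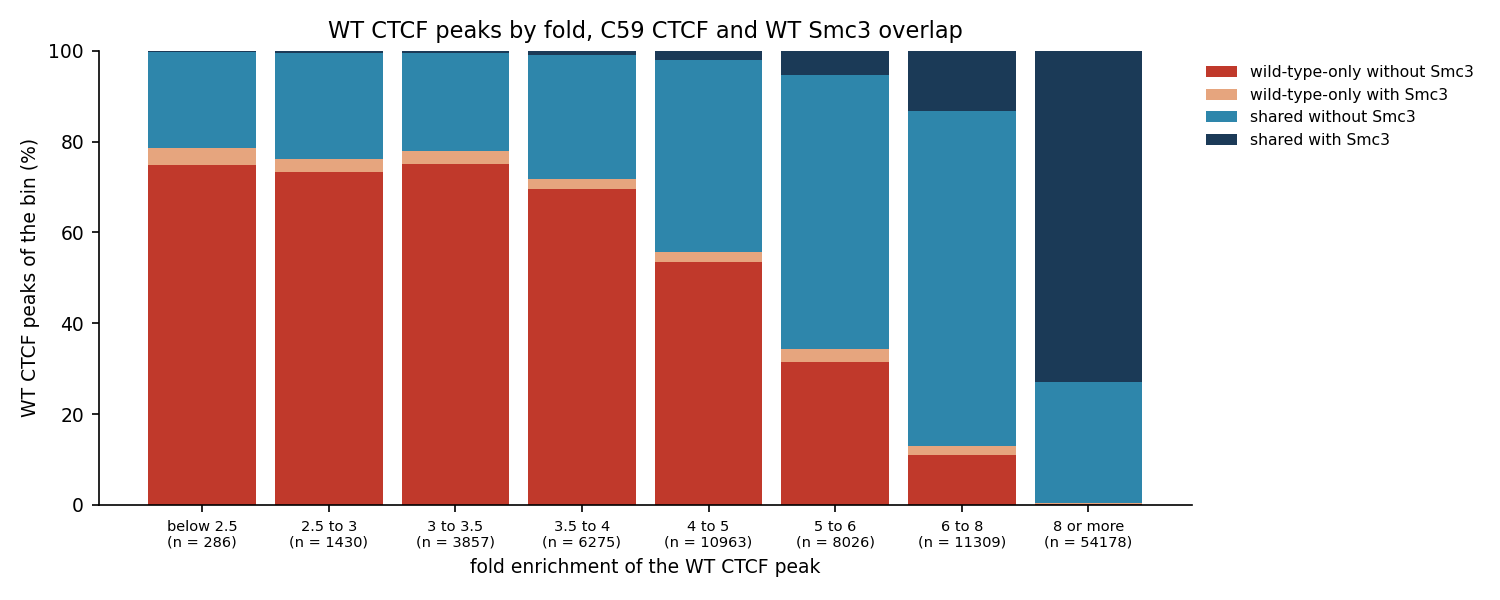
WT CTCF peaks on autosomes in bins of fold (x axis, with the number of peaks), split in percent (y axis) by overlap with C59 CTCF and WT Smc3. Wild-type-only sites without Smc3 make up 75% of peaks at a fold of 3 to 3.5 and 0.277% at 8 or more.

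The rule turns on 1 bp, and few sites lay at that border. The smallest distances from the edge of a wild-type-only site to the edge of a C59 CTCF peak were 2 bp, at a site inside Tex264 on chromosome 9 (fold 1.92, q 0.0495), and 5 bp, at a site on chromosome 11 nearest to Nxph3 (fold 2.36). Just on the other side, a WT peak on chromosome 4 nearest to Pdzk1ip1 (fold 2.73) overlapped its C59 peak by 4 bp, and one on chromosome 17 nearest to Armc12 (fold 3.0) by 6 bp. In all, 146 wild-type-only sites lay within 100 bp of a C59 CTCF peak, and 70 shared sites without Smc3 overlapped theirs by at most 100 bp.

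Of the 10 sites with the highest fold, 7 were inside a protein-coding gene, beyond 1 kb of its ends. Over the 150 sites at a fold of 8 or more the share was 55.3% (47.0 to 63.4), against 51.4% of all wild-type-only sites without Smc3 and 52.7% (51.9 to 53.5) of shared sites without Smc3 at that fold, so the 10 are a description only. The first was inside Heatr5a on chromosome 12 at 51904763 to 51905660, with a fold of 12.7 and a pileup of 66. A C59 CTCF peak began 837 bp away and a WT Smc3 peak 959 bp away, so this site had close neighbours of both kinds.

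Next came a site inside Ppfia1, which encodes a liprin of cell adhesion sites, on chromosome 7 at 144527570 to 144528131 (fold 12.0), with the nearest C59 CTCF peak 15014 bp away. The site inside Ltbp2, a gene for a matrix protein that binds microfibrils, on chromosome 12 at 84811946 to 84812452 had a fold of 11.8 and a C59 CTCF peak at 1291 bp. Qrich1 on chromosome 9 held a site at 108548573 to 108549131 (fold 11.3). These 4 lay in regions with other CTCF peaks of both lines, at distances that ranged from under 1 kb to over 15 kb.

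Ptprz1, a receptor tyrosine phosphatase of glia, held a site on chromosome 6 at 22876142 to 22876715 (fold 11.0), 938 bp downstream of a start site and 25804 bp from the nearest C59 CTCF peak. Fezf2, a transcription factor of cortical projection neurons, held a site on chromosome 14 at 12341300 to 12341803 (10.8). Outside genes, 3 of the 10 were nearest to Cers6 (10.7, chromosome 2), Fam20c (10.7, chromosome 5) and Mgat3 (10.5, chromosome 15). Of all 10, the 2 at Heatr5a and near Cers6 had a C59 CTCF peak within 1 kb.

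The weakest wild-type-only sites had other peaks nearby most often. A C59 CTCF peak lay within 1 kb of 29.5% (26.8 to 32.4) at a fold of 2.5 to 3, of 21.4% (19.9 to 23.0) at 3 to 3.5, of 12.7% (11.8 to 13.5) at 4 to 5 and of 12.0% (7.27 to 18.3) of the 150 sites at 8 or more. A WT Smc3 peak lay within 1 kb of 17.8% (15.5 to 20.2) at 2.5 to 3 and of 5.33% (2.33 to 10.2) at 8 or more. Shared sites without Smc3 fell likewise, from 12.9% (9.48 to 16.9) to 6.00% (5.62 to 6.40). C59 CTCF allows no such comparison, since shared sites overlap it by definition. The 150 strongest wild-type-only sites thus differed in both distances from the weak bins and overlapped the bins from 4 upward within counting error. The nearest end of a protein-coding gene was at most 1 kb away for 12.7% (7.80 to 19.1) of the 150. In the WT list, 14633 peaks of that strength had no Smc3, and 1.03% of them (0.868 to 1.20) were not found in C59.

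Over all folds together, the sites lay relative to genes much like shared sites without Smc3. With a gene end counted where the summit lay at most 1 kb from the first or last annotated base of a protein-coding gene, such ends held 9.72% of wild-type-only sites (9.30 to 10.2) and 9.75% of shared sites without Smc3 (9.45 to 10.1), against 3.07% of the annotated autosomal span. A further 51.4% (50.6 to 52.1) and 51.0% lay elsewhere inside genes, against 38.8% of the span. The remaining 38.9% (38.2 to 39.6) and 39.2% lay outside genes. Shared sites with Smc3 were outside genes more often, at 46.4% (45.9 to 46.9), as were the wild-type-only sites with Smc3, at 46.3% (43.3 to 49.3). Gene ends held 15.2% (13.2 to 17.5) of the latter. At like fold the 2 groups without Smc3 were less alike, with 53.3% (51.5 to 55.1) of wild-type-only and 47.4% (43.9 to 50.8) of shared sites inside genes at 3 to 3.5, and 51.4% (49.9 to 52.9) and 47.6% (45.2 to 49.9) at 3.5 to 4. From 4 to 5 the shares were 50.3% (49.0 to 51.6) and 49.6% (48.2 to 51.1).

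Gene ends were most common among the weakest sites. Between folds of 2.5 and 3, 18.3% of wild-type-only sites (16.0 to 20.8) had a gene end within 1 kb, and 16.8% of shared sites without Smc3 (12.9 to 21.2). Between 3 and 3.5 the shares were 12.4% and 14.1%, and between 5 and 6 they were 7.71% (6.70 to 8.82) and 7.79% (7.05 to 8.58). From 4 to 5 the intervals did not overlap, at 7.78% (7.11 to 8.50) and 9.68% (8.85 to 10.6). A close neighbour in the WT CTCF list followed the same course. Another summit lay within 1 kb of 22.9% (20.4 to 25.6) of wild-type-only sites at a fold of 2.5 to 3, of 15.8% at 3 to 3.5 and of 6.88% (5.92 to 7.93) at 5 to 6.

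**Figure D3:**
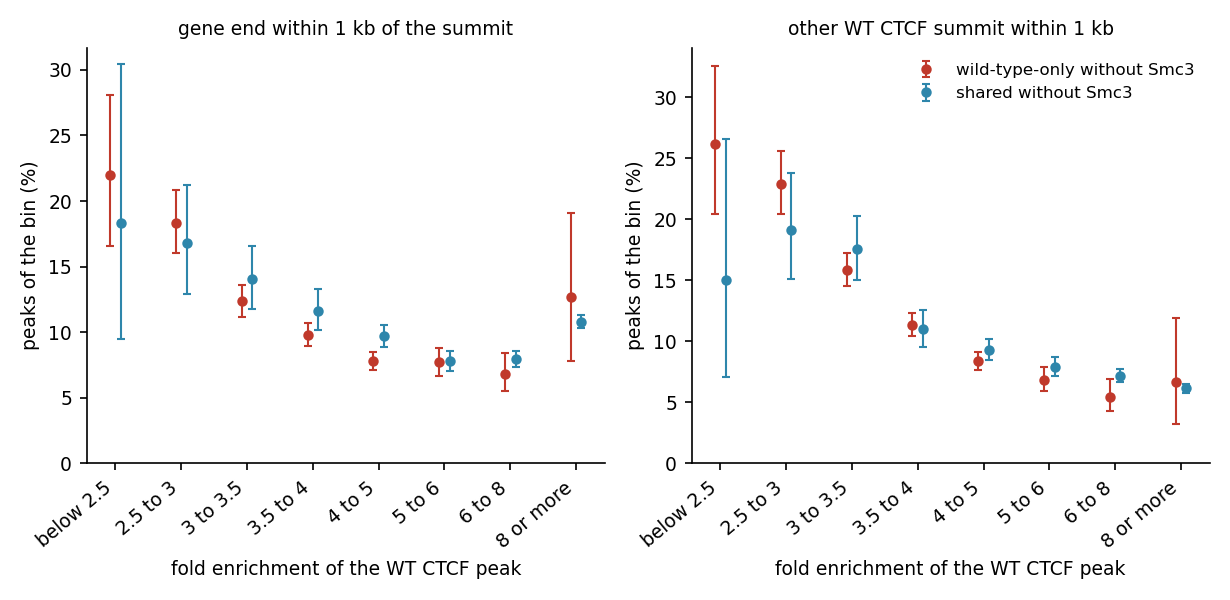
Percent of peaks (y axis) with a protein-coding gene end within 1 kb (left) and with another WT CTCF summit within 1 kb (right), by bin of fold (x axis), for wild-type-only and shared sites without Smc3; points are shares and whiskers 95% Clopper-Pearson intervals. Both groups fall from the low bins to the middle ones, as from 18.3% to 7.71% for gene ends at wild-type-only sites between folds of 2.5 to 3 and 5 to 6.

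Around start sites the wild-type-only summits lay mostly downstream, in the first part of the transcribed region. Within 500 bp of a start site, 567 of 991 (57.2%, 54.1 to 60.3) were downstream, with a median position of 62 bp past the start. Of shared sites with Smc3, 34.1% (31.9 to 36.4) were downstream and the median was 75.5 bp before the start, but 1666 of those 1722 had a fold of 6 or more. The 48 with a fold of 4 to 6 were 70.8% downstream (55.9 to 83.0). In bins of 100 bp the wild-type-only sites were most frequent from 100 to 200 bp past the start, with 161 summits, and both shared groups in the last 100 bp before it. For shared sites without Smc3 the downstream share was 51.3% (49.0 to 53.6) in all, but 56.9% (50.4 to 63.3) below a fold of 4 and 59.9% (55.2 to 64.5) from 4 to 6. The wild-type-only sites had 58.6% (54.5 to 62.7) and 55.0% (49.6 to 60.4) in those ranges. At a fold of 6 or more it was 55.9% (42.4 to 68.8) of 59 wild-type-only sites and 47.0% (44.1 to 49.9) of 1200 shared sites without Smc3. In each range of fold the intervals of these 2 groups overlapped. Chromosome 18 was not used for start sites.

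**Figure D4:**
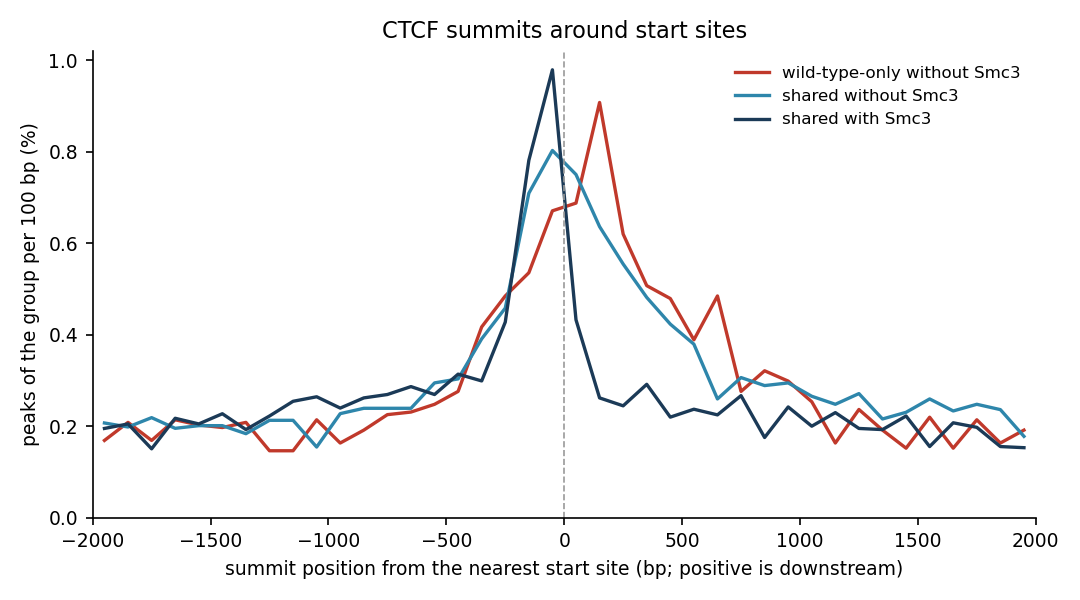
Summits around the nearest start site in bins of 100 bp (x axis, positive values downstream), as percent of each group (y axis), for 3 groups of WT CTCF peaks. The line of wild-type-only sites without Smc3 is highest from 100 to 200 bp past the start, and the lines of the shared sites in the last 100 bp before it.

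Most wild-type-only sites were set among other CTCF sites. The nearest other WT CTCF summit was at a median of 4323 bp, and lay within 10 kb of 73.4% (72.8 to 74.0), against 73.4% of shared sites without and 73.3% of shared sites with Smc3. Within 1 kb the share was 10.9% (10.4 to 11.3), against 7.70% (7.43 to 7.99) and 4.47% (4.28 to 4.68). In each bin of fold, however, the intervals of the 2 groups without Smc3 overlapped. At 2.5 to 3 the wild-type-only sites had 22.9% (20.4 to 25.6) and the shared sites 19.2% (15.1 to 23.8). From 4 to 5 it was 8.36% (7.67 to 9.10) and 9.32% (8.49 to 10.2). Where a neighbour lay within 1 kb, it was the stronger of the pair by fold in 80.3% of 1991 cases, against 48.6% for shared sites without and 13.7% for shared sites with Smc3, an order that goes with each group's own fold. That neighbour was of the same wild-type-only class in 28.3%, against 28.9% and 36.5% for the shared groups. At the other extreme, 842 sites (4.60%) had no other WT CTCF summit within 50 kb.

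That no WT Smc3 peak overlapped these sites was set by the choice, but many of the sites had one nearby. A WT Smc3 peak lay within 1 kb of 8.35% (7.96 to 8.76) and within 10 kb of 50.7% (50.0 to 51.4), against 6.77% (6.51 to 7.04) and 49.0% of shared sites without Smc3. Within 1 kb the order of the 2 groups changed with fold. At 2.5 to 3 it was 17.8% (15.5 to 20.2) of wild-type-only and 12.9% (9.48 to 16.9) of shared sites. From 4 to 5 it was 6.23% (5.62 to 6.88) and 7.63% (6.89 to 8.44). In the C59 Smc3 list, which the choice did not use, 11 of the 18304 sites (0.0601%, 0.0300 to 0.108) were overlapped. For shared sites without Smc3 it was 0.715% (0.630 to 0.809). Of all autosomal WT CTCF peaks 24262 (25.2%) were overlapped, but 23974 of these were shared sites with Smc3. The choice left such sites out, so only shared sites without Smc3 are a like comparison. The share of wild-type-only sites overlapped depended on the overlap that counts as shared. It was 1.75% with 50% of both peaks needed and 0.0196% with peaks within 1000 bp counted. By fold it was 6 of 4369 (0.137%, 0.0504 to 0.299) against 4 of 1716 shared sites without Smc3 (0.233%, 0.0635 to 0.596) between 3.5 and 4. From 4 to 5 it was 0 of 5859, with an upper bound of 0.0629%, against 7 of 4637 (0.151%, 0.0607 to 0.311). From 5 to 6 it was 0.0395% (0.001 to 0.220) against 0.165% (0.0714 to 0.325), and from 6 to 8 0.0805% (0.00204 to 0.448) against 0.396% (0.273 to 0.556). The intervals overlapped in each of these 4 bins, narrowly from 4 to 5. Within 1 kb a C59 Smc3 peak lay beside 3.90% (3.62 to 4.19) of the wild-type-only sites and 3.73% (3.53 to 3.93) of the shared sites without Smc3.

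Of those 11 sites, 6 stood within 1 kb of a gene end, against 9.72% of all wild-type-only sites without Smc3. A WT Smc3 peak lay within 500 bp of 5 of them. For the whole class the share with one within 1 kb was 8.35%, and that within 500 bp was not computed. The 11 are too few for more than a description. The strongest lay at a gene end of Tead3, a DNA-binding partner of the Hippo pathway's coactivators, on chromosome 17 at 28332280 to 28332650, with a fold of 6.41 and a WT Smc3 peak 371 bp away. The others of highest fold were inside Myo3b, a myosin of sensory cells (5.89, chromosome 2), at gene ends of Hsd3b7, a bile acid enzyme (3.93, chromosome 7), and of Polg2, a subunit of the mitochondrial DNA polymerase (3.92, chromosome 11), and nearest to Rab7, a GTPase of late endosomes (3.83, chromosome 6). The site inside Myo3b had its nearest WT Smc3 peak 45578 bp away, whereas that at Polg2 had one at 157 bp.

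Chromosomes differed in how many of their CTCF peaks were of this class. On chromosome 8 it was 26.2% (25 to 27.3), on chromosome 11 16.4% (15.5 to 17.2) and on chromosome 1 11.9% (11.1 to 12.8), and each of the remaining 16 lay between 17.6% and 21.6%. The local background under the peaks moved with this. At the wild-type-only sites of chromosome 8 the median WT background was 6.30 and on the other 16 it was 4.35 to 4.57, while the median background of C59 CTCF peaks was 4.00 there as elsewhere (3.80 to 4.00). On chromosome 1 the C59 background was 5.42 and on chromosome 11 it was 5.80, with WT values of 4.76 and 5.49. Among WT peaks without Smc3 at a fold of 3 to 5, 79.7% (77.3 to 81.9) were not found in C59 on chromosome 8, 54.6% (52.2 to 57) on chromosome 11 and 44.2% (41.5 to 46.9) on chromosome 1, against 62.8% to 69.4% on the other 16. The part of the background in these shares was not tested, and values for genes on those 3 chromosomes share this limit.

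**Figure D5:**
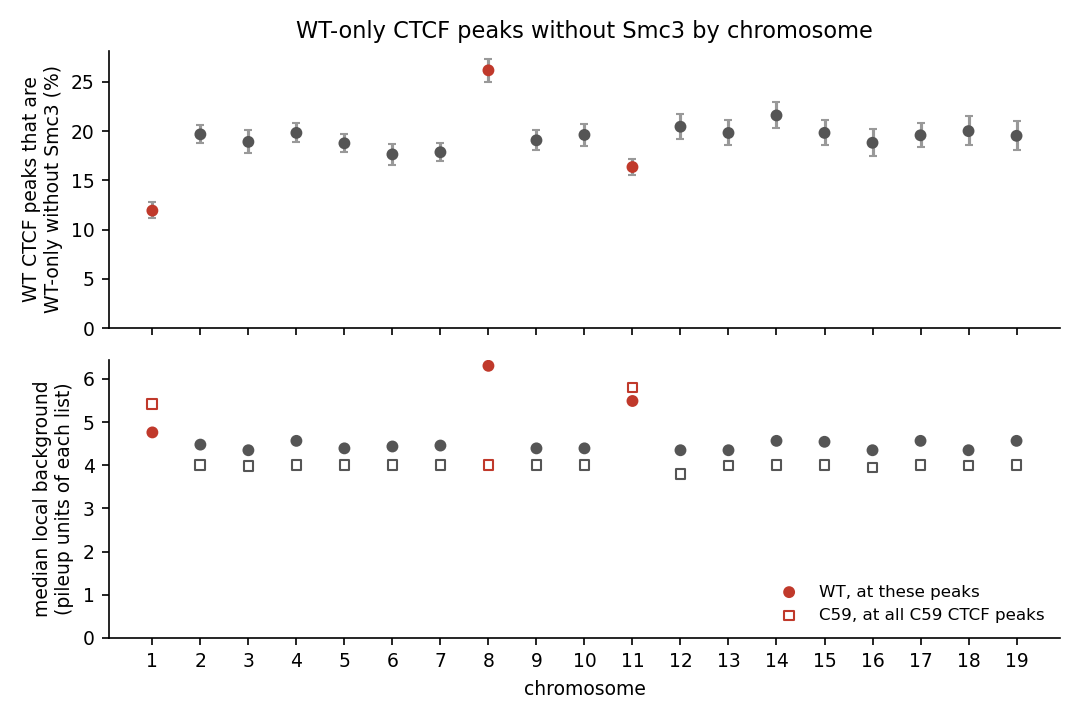
Top, percent of WT CTCF peaks of each autosome (x axis) that are wild-type-only without Smc3, with 95% Clopper-Pearson intervals; bottom, median local background at these WT peaks (filled) and at all C59 CTCF peaks (open), in the pileup units of each list. Chromosomes 1, 8 and 11, in red, lie outside the range of the other 16 in the top panel (17.6% to 21.6%).

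Gene lists were read against all 20665 autosomal protein-coding genes, of which 9.01% had a wild-type-only site without Smc3 within 1 kb of an end. Of the 8201 genes with any WT CTCF summit there, 15.4% had only such sites, and at 1238 genes no C59 CTCF summit lay at either end. Among 13 lists the share of genes with such a site ran from 2.17% to 25.7%, and the interval spanned 9.01% in all but one. With 1 library a group these counts carry no test.

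That list was FGF and MAPK signalling, in which fibroblast growth factors act through receptors on a kinase cascade that moves stem cells out of the naive state. Of its 35 genes, 9 had such a site (25.7%, 12.5 to 43.3), and at 8 of them no other WT CTCF summit stood at an end. CTCF of any kind was frequent here, with 21 of 35 genes against 39.7% of all genes. The 9 sites were weak, with folds of 3.06 to 5.19. Fgf3, a ligand, had the strongest (5.19, chromosome 7), 159 bp past its start site, followed by Dusp5, a phosphatase that switches off the kinase ERK (5.13, chromosome 19), also 159 bp past the start. Ligands (Fgf3, Fgf8, Fgf10), a receptor (Fgfr3), a kinase (Mapk3) and phosphatases (Dusp4, Dusp5) were among the 9.

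Other signalling lists lay nearer to the share of all genes. In Wnt signalling, which sustains self-renewal through beta-catenin, 8 of 44 genes had a site (18.2%, 8.19 to 32.7). Dvl1, the adaptor below the receptors, had the strongest (6.65, chromosome 4), 30 bp past its start and 191 bp from a C59 CTCF peak. Axin1, a scaffold of the complex that destroys beta-catenin (5.93, chromosome 17), and Sfrp2, a secreted inhibitor (4.56, chromosome 3), came next. In TGF-beta and BMP signalling 6 of 39 genes had a site (15.4%, 5.86 to 30.5), led by Id4, a target gene (4.66, chromosome 13), Acvr1, a receptor (4.31, chromosome 2), and Smad3, a signal transducer (4.09, chromosome 9).

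Among 26 pluripotency factors 4 had such a site (15.4%, 4.36 to 34.9). Zfp42, a marker of the naive state (6.61, chromosome 8), and Sall4, a zinc finger factor (4.09, chromosome 2), had no other WT CTCF at their ends, with the nearest C59 CTCF peak 2268 bp and 1370 bp away. Tfcp2l1, a factor of the naive state (4.15, chromosome 1), and Nodal had a shared site at their ends as well. Of 23 genes of CTCF and the cohesin machinery, 3 had one (13%, 2.78 to 33.6). They were Pds5a, a regulator of cohesin release (5.13, chromosome 5), Zfp143, a DNA-binding protein found with CTCF at loop anchors (3.74, chromosome 7), and Mau2, a subunit of the cohesin loader (2.84, chromosome 8). At Mau2 a C59 CTCF peak began 51 bp from the site.

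Hox genes, which set position along the body axis, had such a site at 6 of 39 (15.4%, 5.86 to 30.5), and 5 of the 6 were in the Hoxb cluster on chromosome 11. The strongest was at Hoxa13 (5.61, chromosome 6), followed by 1 peak that lies at ends of both Hoxb7 and Hoxb8 (4.91) and one at Hoxb6 (4.40). Imprinted genes had 2 of 39 (5.13%, 0.627 to 17.3). At Rtl1, a gene derived from a retrotransposon that is expressed from the paternal copy, the site reached a fold of 8.36 on chromosome 12 at 109564778 to 109565229, with a C59 CTCF peak 1340 bp away. The other was at Ube3a, a ubiquitin ligase (3.60, chromosome 7), 113 bp from a C59 CTCF peak.

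Ribosomal protein genes had 4 of 53 (7.55%, 2.09 to 18.2), led by Rpl3 (5.86, chromosome 15) and Rps18 (4.02, chromosome 17), where a WT Smc3 peak lay 473 bp and 492 bp away. Rps13 followed (3.56, chromosome 7). Isl1, a factor of heart and motor neuron progenitors (5.70, chromosome 13), Nkx2-5, a cardiac factor (4.14, chromosome 17), and Mesp2, a factor of somite boundaries (3.61, chromosome 7), were the 3 of 32 mesoderm and endoderm genes with a site (9.38%, 1.98 to 25). Zic1 (3.86, chromosome 9) and Olig1 (3.65, chromosome 16), both neural transcription factors, were the 2 of 37 neural genes (5.41%, 0.661 to 18.2), and at Olig1 a WT Smc3 peak began 24 bp away. Tfap2c (3.18, chromosome 2), a factor of the trophectoderm, Ccnb1 (4.40, chromosome 13), a mitotic cyclin, and Kmt2b (3.99, chromosome 7), a histone methyltransferase, were the single genes with a site among 12 trophectoderm, 39 cell cycle and 46 chromatin genes.

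Another wild-type-only site without Smc3 lay within 10 kb of 28.7% of the sites and within 1 kb of 3.16%. Where any WT CTCF summit lay within 10 kb, the nearest was of this class for 20.6% of wild-type-only sites without Smc3, 19.7% of shared sites without and 18.7% of shared sites with Smc3, all near its 19.0% of the list. In a grid of 100 kb windows, 3 windows held 11 such sites each. The window from 35000000 to 35099999 on chromosome 17, in the gene-dense class III region of the major histocompatibility complex, had 11 of 19 WT CTCF peaks of this kind, with folds of 3.22 to 5.57, among 13 protein-coding genes that include Msh5, Clic1 and Abhd16a. The window from 122300000 to 122399999 on chromosome 5, with Arpc3, Vps29 and Pptc7, had 11 of 21 (folds 2.49 to 5.79). The window from 28300000 to 28399999 on chromosome 17, with Ppard, Tead3 and Fkbp5, had 11 of 30 (3.14 to 6.41). In these windows 7, 9 and 19 of the other CTCF peaks were found in C59, so shared and unshared sites stood side by side.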

How the data were processed

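Peak lists of 4 ChIP-seq libraries (WT and C59, CTCF and Smc3) were used. Groups came from the sample titles. The Smc3 antibody was taken from each library's antibody label, although the labels' extraction protocol names Rad21. Build mm10, Bowtie 0.12.8, deepTools 2.4.1, FastQC 0.10.1, CASAVA and MACS2 2.1.0.20140616 are listed, per the submitters' processing notes, with no role or order. The control and threshold of peak calling are not given in the sources used here. The lists have no header and no read totals. Per the file values, the authors deposited for each peak a pileup signal at the summit, a p-value and q-value on a linear scale, and a fold enrichment, which is a ratio of pileup to local background. Peak length and summit position are in bp, counted from 1. The largest q in the WT CTCF list was 0.0495. Precision is limited by 1 library per group.

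Overlaps, distances and shares were computed in Python 3.11.15 (scipy 1.17.1, pandas 2.3.3, numpy 2.4.6). Plots used matplotlib 3.10.9. The functions gave every known answer on 400 simulated peaks and 200 simulated sequences. Distance between peaks is the start of one minus the end of the other. Background was pileup plus 1, divided by fold, minus 1, and its floor the median of the lowest 10%. Relative depth, floor divided by pileup step, assumes like fragment length and genome size in the lists. Genes and promoter windows came from RefSeq tables of GRCm38.p6. The 13 gene lists held 476 entries, matched by symbol or synonym on the autosomes (counts per list in the text). A gene end is either annotated end of a gene.

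The class of sites and the gene lists were chosen with earlier results of these data known. Named sites are the 10 of highest fold, up to 3 per gene list, the 3 densest windows, the nearest on each side of the overlap rule, and the 5 strongest with C59 Smc3. The rule for sequences was highest fold in a promoter window. Its restriction to outermost start sites, its split by motif, and the measures for fold 8 or more and around start sites were added after the data were seen. Some sites that these rules select are not reported here.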

Additional observations from a re-analysis of the deposited data

How the results depend on the processing

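With 50% of both peaks needed for sharing, the class was 21.6% of autosomal WT CTCF peaks, its median fold 4.18, 10.5% had a gene end within 1 kb, 1.75% overlapped C59 Smc3 and 75.2% had another WT CTCF summit within 10 kb. With any peak within 1000 bp counted as shared, the values were 15.9%, 4.18, 8.37%, 0.0196% and 68.4%. At a −log10 q of at least 5 the class was 16.4%, with a median fold of 4.34, 8.71% at gene ends, 39.8% outside genes and 71.3% with a neighbour within 10 kb. Without chromosomes 1, 8 and 11 it was 19.3%, with a median fold of 4.18. With equal numbers of CTCF peaks it was 8.55%, with 5.13, 8.39% at gene ends and 66.4% with a neighbour. A gene-end window of 2500 bp gave 18.4%, and all annotated genes gave 14.2% at gene ends and 30.8% outside genes. A C59 Smc3 peak within 1000 bp was found at 3.90%, and the looser motif at 19.4%. Of 35 values under alternatives, 9 stayed within the counting interval of the reported value. The size of the class and its overlap with C59 Smc3 are the values that moved by over 1.5 times, apart from those set by a wider window or a looser motif. No paired analysis was possible because each line and antibody gave 1 library. Depth in reads is unknown, so sites near the threshold cannot be told from sites just missed in C59.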

Other observations

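In the reverse direction, 2323 of 80258 autosomal C59 CTCF peaks (2.89%) overlapped neither a WT CTCF nor a C59 Smc3 peak. Their median fold in the C59 list was 4.19, their median width 284 bp, and 10.8% had a protein-coding gene end within 1 kb. They were fewer than the wild-type-only sites, and the pileups of the lists were scaled differently.

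Some long genes held many wild-type-only sites without Smc3, here picked after their values were seen. Rere, a corepressor gene of 340.5 kb on chromosome 4, held 19 among its 45 WT CTCF peaks (42.2%). Pex14, a peroxisome import gene of 139.3 kb on the same chromosome, held 9 of 19 (47.4%), and Rptor, the mTORC1 scaffold, on chromosome 11, 9 of 21 (42.9%). Longer genes were not always richer in them by share, with 13 of 57 (22.8%) in Nav2 and 12 of 61 (19.7%) in the cadherin gene Cdh13 on chromosome 8. The class was 19.0% of all autosomal WT CTCF peaks and 26.2% of those on chromosome 8. These genes were picked from those with the most such sites, so their shares are a description only. Of 19307 named protein-coding genes, 6175 held at least 1 such site and 212 held 5 or more.

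Genes for noncoding RNA had less WT CTCF of any kind at their ends, and fewer had a wild-type-only site without Smc3. A site lay within 1 kb of an end of 644 of 12408 long noncoding RNA genes (5.19%, 4.81 to 5.60), 49 of 1136 microRNA genes (4.31%, 3.21 to 5.66) and 34 of 1286 snoRNA genes (2.64%, 1.84 to 3.68). The shares were 4.86% of tRNA genes (19 of 391, 2.95 to 7.48) and 9.01% of protein-coding genes. A WT CTCF summit of any kind stood at 26.0% of long noncoding RNA, 18% of microRNA, 18.3% of snoRNA and 31.2% of tRNA genes, against 39.7% of protein-coding genes. Among genes with such a summit, only wild-type-only sites without Smc3 were there at 14.7% of long noncoding RNA and 19.0% of microRNA genes. It was 12.3% of snoRNA and 9.84% of tRNA genes, against 15.4% of protein-coding genes. Genes that share an end share a site in these counts. The windows at both ends of a short gene overlap, so less DNA was searched at microRNA, snoRNA and tRNA genes than at long genes. The part of gene length in these shares was not tested.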
